A study of Homo sapiens with 6 samples.

Results

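The probe sets described here are those annotated to several genes. Whether each reads all of them was not checked. Of 54675 probe sets on the array, 62 are the manufacturer's control probe sets (names starting with AFFX) and 54613 were tested. A member was any tested probe set whose annotation entry lists at least 2 gene symbols, which gave 1801 probe sets, or 3.30% of those tested, with 2338 different symbols. Of the remainder, 41091 list a single symbol and 11721 list none. The number of listed symbols was 2 for 1339 members, 3 for 236 and 4 or more for 226, up to 15 symbols of the protocadherin alpha cluster. The signal from such a probe set was credited to no single gene, so each is named with its symbols.

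The arrays came from MCF10A cells, a non-tumorigenic human mammary epithelial line, labelled either as carrying C/EBPbeta-2 (3 arrays) or as MCF10A cells without it (3 arrays, called control). C/EBPbeta-2 is a form of a leucine zipper transcription factor made from the CEBPB gene. Both groups were grown in the same medium with horse serum, insulin, hydrocortisone, epidermal growth factor, cholera toxin and antibiotics, and the labels give no treatment. The sources used here do not say how C/EBPbeta-2 was introduced or whether the lines are clones or pools. The labels call the 3 samples of each group biological replicates but name no separate cultures, so p-values measure only the spread between these samples.

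Facts of the whole set of arrays bear on the values below. The CEBPB probe set read 10.29, 10.50 and 11.38 (log2 intensity) on the C/EBPbeta-2 arrays and 11.27, 11.38 and 11.37 on the control arrays. Its difference of -0.62 had an adjusted p of 1.00 (limma), and since the position of its probes relative to an introduced sequence was not used here, it checks no label. The directions below therefore belong to the arrays labelled C/EBPbeta-2. The mean of the poly-A spike-in control probe sets was low on a pair of arrays, C/EBPbeta-2 replicate 2 (3.73) and control replicate 1 (3.86), and 6.75 to 7.65 elsewhere. Those 2 arrays also had the largest 3' minus 5' differences for beta-actin, 1.32 and 1.48 on the log2 scale, against -0.04 to 0.64. The same measure for GAPDH did not set them apart, at 0.22 and 0.12 against 0.21 to 0.32. The 6 listed markers of basal or general epithelial cells read by a single-gene probe set were all above the median brightness. Among them, KRT14 had a mean log2 of 13.34 in control and 10.33 in C/EBPbeta-2 arrays (adjusted p = 0.0648, limma). CDH1 had 10.60 and 8.46 (adjusted p = 0.0504, limma). LAMB3 went the other way, with 10.40 in control and 11.57 in C/EBPbeta-2 arrays, and was not called. KRT5, EPCAM and ITGB4 differed by -0.13, 0.03 and -0.51. Of the markers of other cell types, 3 of 5 for luminal cells and 2 of 6 for fibroblasts were above the median brightness. So were 2 of 4 for leukocytes and 1 of 4 for endothelium. The fibroblast marker DCN had a mean log2 of 10.16 in control and 7.55 in C/EBPbeta-2 arrays (adjusted p = 0.660, limma). The leukocyte marker CD14 had 6.16 and 7.08 (adjusted p = 0.430, limma).

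An expression array reads RNA through short probes, and a probe set cannot separate transcripts that contain the same probe sequences. That happens between gene copies, such as the histone or SERPINB3 and SERPINB4 genes, and between transcripts that share exons, such as those of the protocadherin alpha cluster. It also happens where one transcript runs through neighbouring genes, and where a small RNA gene lies in or beside a longer transcript that the probes match. The snoRNAs of the SNURF-SNRPN transcript are cut out of its introns.

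The following sequences belong to the genes behind the largest differences, and were chosen after the values were seen. All are credited to RefSeq (GRCh38.p14). Promoter windows are the 250 bases before the annotated start, written 5' to 3' on the gene's strand. KRT34, an acidic hair keratin, is at chr17:41382307-41382556 on the minus strand, and the capitals mark a TATAAA match that begins 31 bases before the start.
KRT34: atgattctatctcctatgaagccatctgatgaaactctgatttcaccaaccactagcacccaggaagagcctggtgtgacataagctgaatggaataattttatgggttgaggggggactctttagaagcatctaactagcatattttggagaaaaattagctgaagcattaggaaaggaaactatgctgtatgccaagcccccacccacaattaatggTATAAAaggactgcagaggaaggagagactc
SERPINB3 (chr18:63661894-63662143) and SERPINB4 (chr18:63644257-63644506), both on the minus strand, show how alike the promoter windows of genes listed by one probe set can be. Their windows were equal at 247 of 250 bases, and the capitals mark the 3 bases that differ. These bases lie before the start, and no transcript or probe sequences were compared.
SERPINB3: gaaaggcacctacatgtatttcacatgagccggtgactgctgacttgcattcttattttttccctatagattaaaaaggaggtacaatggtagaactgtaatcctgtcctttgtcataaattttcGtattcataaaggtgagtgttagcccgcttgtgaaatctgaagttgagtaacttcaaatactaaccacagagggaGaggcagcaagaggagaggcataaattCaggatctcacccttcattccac
SERPINB4: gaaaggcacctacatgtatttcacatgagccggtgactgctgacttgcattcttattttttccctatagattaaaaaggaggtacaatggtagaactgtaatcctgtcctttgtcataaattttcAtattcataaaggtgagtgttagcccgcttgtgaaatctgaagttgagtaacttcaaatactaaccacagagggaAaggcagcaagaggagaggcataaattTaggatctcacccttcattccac
SNRPN (chr15:24856321-24856570, plus strand) and SNURF (chr15:24954737-24954986, plus strand) are the start sites annotated to the SNURF;SNRPN probe sets. The capitals mark the match to TTGCNNAA, the core of the element that C/EBP proteins bind, searched on both strands.
SNRPN: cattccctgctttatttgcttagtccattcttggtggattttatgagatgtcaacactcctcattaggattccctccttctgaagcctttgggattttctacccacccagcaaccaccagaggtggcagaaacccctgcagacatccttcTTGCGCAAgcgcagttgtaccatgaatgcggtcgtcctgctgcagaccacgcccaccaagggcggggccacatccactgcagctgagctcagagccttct
SNURF: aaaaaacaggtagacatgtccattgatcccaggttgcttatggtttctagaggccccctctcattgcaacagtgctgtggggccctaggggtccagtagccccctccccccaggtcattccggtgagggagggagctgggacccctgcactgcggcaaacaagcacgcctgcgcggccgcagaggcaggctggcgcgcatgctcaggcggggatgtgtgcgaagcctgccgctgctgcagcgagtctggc
The KRT34, SERPINB3, SERPINB4 and SNURF windows had no match to TTGCNNAA. The SNURF window held 12 CG dinucleotides at 63.6% G and C. The SNRPN window held 6 CG dinucleotides at 53.2%.

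TTGCNNAA occurred in 2883 of 27305 promoter windows of 300 bases (10.6%) and in 107 of the 1295 windows available for genes that the members list (8.26%). TATAAA occurred in 3264 of the 27305 (11.95%). These matches describe letters in a window and no binding. The 2 microRNAs listed with MIR503HG give the following mature forms from chromosome X, minus strand, with the seed (bases 2 to 8) in capitals. Their coordinates are chrX:134546680-134546701 and chrX:134546644-134546664 for miR-424, and chrX:134546371-134546393 and chrX:134546331-134546353 for miR-503.
miR-424-5p: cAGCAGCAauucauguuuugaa
miR-424-3p: cAAAACGUgaggcgcugcuau
miR-503-5p: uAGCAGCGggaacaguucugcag
miR-503-3p: gGGGUAUUguuuccgcugccagg
The 5p seeds of miR-424 and miR-503 were the same at 6 of 7 bases. The miR-424 hairpin arms lie within the 250 bases before the annotated MIR503HG start (chrX:134546631-134546880), so that by this annotation they are outside MIR503HG, while miR-503 lies beyond the start, on the MIR503HG side. Of 155 microRNAs listed by the members, 138 had a mature sequence in the table.

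Few of the multi-gene probe sets were called different between C/EBPbeta-2 and control arrays, and with so few arrays an uncalled probe set is not shown to be unchanged. With limma and adjustment over all 54613 probe sets, 1 of 1801 rose and 0 fell at an adjusted p under 0.05, or 0.0555%, against 0.0659% of all probe sets tested (36, of which 15 rose, 0.0275%, and 21 fell, 0.0385%). At an unadjusted p under 0.05 there were 84 members (33 higher and 51 lower in C/EBPbeta-2 arrays), or 4.66%, against 3.98% of all. In 151 members (8.38%) every array of a group lay above every array of the other, against 7.62% of all probe sets tested. C/EBPbeta-2 arrays were the higher in 66 of these (3.66% of members, 3.87% of all) and the lower in 85 (4.72% of members, 3.75% of all). A difference of at least 2-fold was seen in 29 members (1.61%), against 1.84% of all. The median log2 difference, C/EBPbeta-2 minus control, was -0.019 for the members and -0.00088 for all probe sets, and each turned positive when arrays were centred on their median (0.0046 and 0.023).

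The members were brighter than the array as a whole. Their median mean log2 was 5.33, against 4.52 for all probe sets and 4.88 for single-gene ones, and 61.6% were at or above 4.52, the median used here as the mark of a bright probe set. Probe set names ending in _x_at or _s_at, the manufacturer's mark for probes shared between transcripts, made up 51.7% of members and 28.4% of all. Among bright probe sets alone, groups did not overlap in 94 of 1110 members (8.47%), against 8.69% of all bright ones.

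The 1 member that rose was annotated to KRT34, a hair keratin of the acidic type, and to the uncharacterised LOC100653049. Its probe set (206969_at) read 6.62, 6.21 and 7.01 in C/EBPbeta-2 and 3.29, 3.75 and 3.20 in control arrays. All 3 C/EBPbeta-2 arrays were bright and all 3 control arrays were below the median brightness of the array, with a gap of over 2 log2 units between the groups. The means were 6.62 ± 0.40 and 3.41 ± 0.30 (SD, n = 3 each), a log2 difference of 3.20 with SE 0.26, or 9.22-fold (adjusted p = 0.0258, limma). The difference was 2.93 between the low-spike arrays and 3.34 between the others, and 3.01 to 3.41 with any 1 array left out. Leaving out C/EBPbeta-2 replicate 1 or 3 ended the call (adjusted p = 0.1495 and 0.144), as did leaving out control replicate 1 or 3 (0.124 and 0.189) or adding the replicate number as a block (0.312). Over all alternatives the adjusted p ranged from 0.00819 to 0.312 (limma). In cultures measured in bulk, more cells with a transcript and more transcript per cell cannot be told apart. The other acidic hair keratins KRT31, KRT32, KRT33A, KRT33B, KRT35, KRT36, KRT37 and KRT38 have 8 single-gene probe sets, with differences of -0.40 to 0.40, and 0 of 8 were called. Of these, KRT32 alone had groups that did not overlap (0.26, adjusted p = 1.00, limma).

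**Figure D1:**
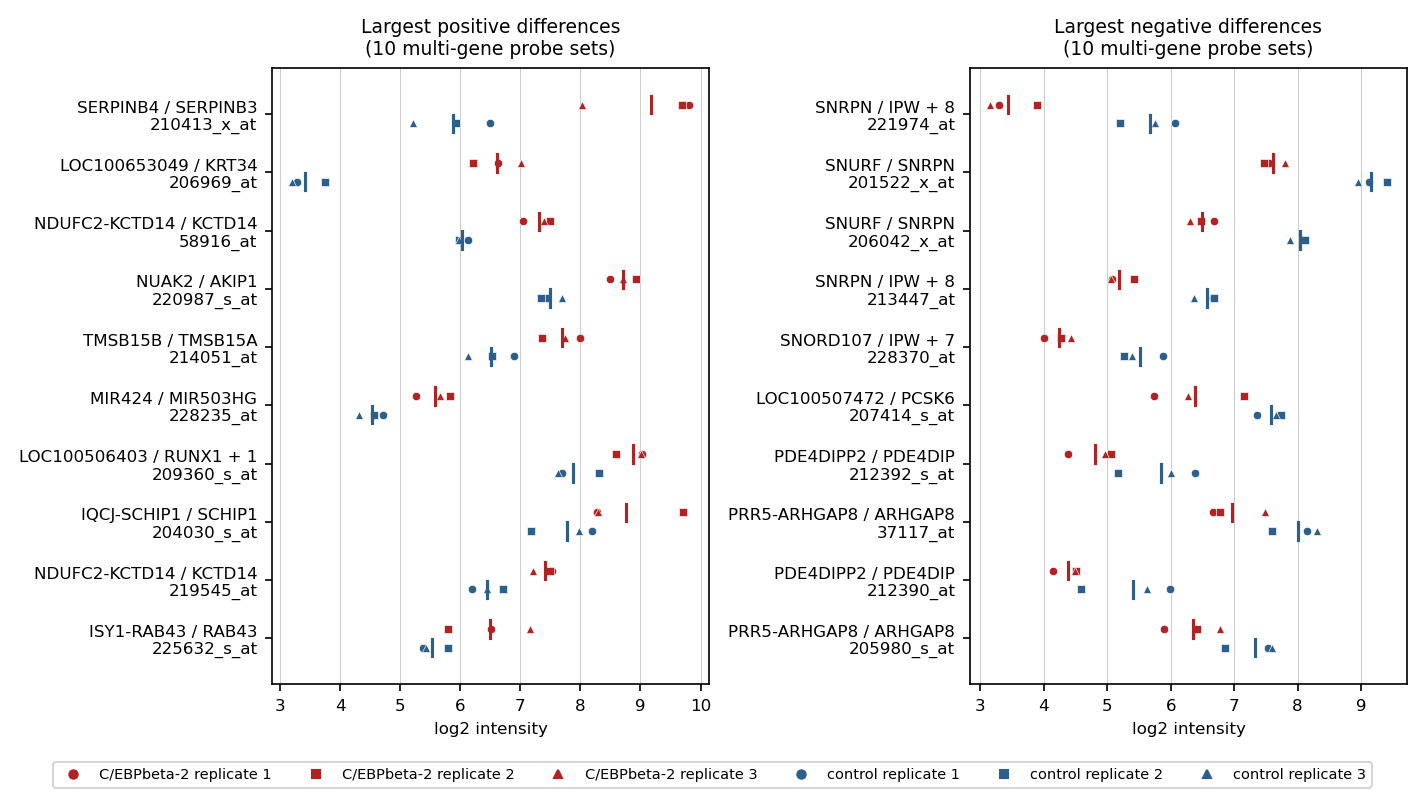
Log2 intensity on each of the 6 arrays (x axis) for the 10 multi-gene probe sets with the largest positive difference (left) and the 10 with the largest negative difference (right), among those whose groups did not overlap and whose brighter group reached the median brightness. Red marks are C/EBPbeta-2 arrays, blue marks control arrays, shapes the replicate number and vertical bars the group means. KRT34 (6.21 to 7.01 against 3.20 to 3.75) is the 1 called probe set, and the SERPINB4;SERPINB3 difference is as large with wider spread.

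The largest positive difference among the members belonged to the protease inhibitors SERPINB4 and SERPINB3, the squamous cell carcinoma antigens. Their shared probe set (210413_x_at) read 9.81, 9.69 and 8.02 in C/EBPbeta-2 and 6.49, 5.93 and 5.21 in control arrays. The lowest C/EBPbeta-2 array lay above the highest control array, although both groups spread by more than 1 log2 unit. The difference was 3.30 with SE 0.55, 9.82-fold, and did not pass the threshold (adjusted p = 0.209, range over alternatives 0.091 to 0.723, limma).

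Single-gene probe sets split this pair further. SERPINB3 rose by 4.29 with SE 0.40 at 209720_s_at (adjusted p = 0.0413, limma). Its other probe set, 209719_x_at, differed by 4.47 with SE 0.53 and was not called (adjusted p = 0.0727). The SERPINB4 probe set 211906_s_at read 4.55, 6.15 and 3.38 against 2.75, 2.87 and 2.66, a difference of 1.93 with SE 0.64 (adjusted p = 0.962). All 4 probe sets had groups that did not overlap. Which of these alike genes the probes match was not checked, since no probe sequences were used here.

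Among members whose groups did not overlap, the 5 largest negative differences came from the SNURF-SNRPN region of chromosome 15, an imprinted region in which the paternal copy is expressed and whose loss causes Prader-Willi syndrome. SNRPN encodes a small nuclear ribonucleoprotein of the splicing machinery, SNURF an upstream reading frame of the same transcript, and IPW and the SNORD116 and SNORD115 snoRNAs lie further along it. The region has 13 multi-gene probe sets, of which 10 had negative differences. Groups did not overlap in 6 of the 13, all lower in C/EBPbeta-2 arrays, against 3.75% lower without overlap among all probe sets tested. The same 6 had an unadjusted p under 0.05 (limma), against 3.98% of all, and 0 were called. The region was picked after its differences were seen, and some of the 13 share a symbol list, so these counts are no independent support. The median difference over the 13 was -0.19, against -0.00088 for all probe sets tested, and 5 of the 13 were bright.

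Probe set 206042_x_at (SNURF;SNRPN) read 6.68, 6.47 and 6.31 in C/EBPbeta-2 and 8.10, 8.11 and 7.88 in control arrays. Probe set 201522_x_at (SNURF;SNRPN) read 7.56, 7.46 and 7.80 against 9.13, 9.41 and 8.95. In both the 3 arrays of a group lay within 0.5 log2 units of each other and more than 1 unit from the other group. The differences were -1.55 with SE 0.17 (2.92-fold lower, adjusted p = 0.057, limma) and -1.56 with SE 0.18 (2.94-fold lower, adjusted p = 0.0737), both short of the threshold. A dimmer SNURF;SNRPN probe set, 1560741_at, differed by -0.69 (adjusted p = 0.621).

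Downstream, 221974_at, which lists SNRPN, IPW, PWARSN and 7 snoRNAs, read 3.29, 3.89 and 3.15 in C/EBPbeta-2 and 6.06, 5.19 and 5.74 in control arrays. All its C/EBPbeta-2 arrays were below the median brightness and all its control arrays above it. The difference was -2.23 with SE 0.30, 4.68-fold lower (adjusted p = 0.104, limma). With the same list, 213447_at read 5.07, 5.42 and 5.06 against 6.66, 6.68 and 6.36 (-1.39, SE 0.18, adjusted p = 0.099995). Probe set 228370_at, without SNRPN in its list, read 4.005, 4.27 and 4.43 against 5.88, 5.26 and 5.39 (-1.27, adjusted p = 0.234). These 3 separated the groups on every array, while the remaining 7 of the 13 overlapped, all with a mean below the median brightness. Of the 6, 206042_x_at, 201522_x_at and 221974_at passed the threshold with array weights (adjusted p = 0.0237, 0.0391 and 0.0282, limma). Probe set 221974_at also passed with the spike term (0.0370) and with the beta-actin covariate (0.0211).

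The single-gene probe sets of the region gave a mixed reading. PWAR6, a noncoding transcript of the region, read 3.21, 3.34 and 3.44 in C/EBPbeta-2 and 4.80, 4.65 and 5.79 in control arrays at 226587_at (-1.75, adjusted p = 0.263, limma). Its second probe set also had groups that did not overlap (-0.76). UBE3A, a ubiquitin ligase whose paternal copy the region's antisense transcript silences in neurons, had differences of 0.06 to 0.45 over 8 probe sets. Groups overlapped in every one. NDN (0.12), MAGEL2 (-0.17) and MKRN3 (-0.04), other paternally expressed genes of the region, differed by less than 0.2, and the SNRPN-only probe set 240204_at by 0.02, all 4 at means below the median brightness. ATP10A ranged from -0.22 to 0.40 over 3 probe sets. Over all 19 single-gene probe sets, 2 were lower and 1 higher without overlap, against 3.75% and 3.87% of all probe sets tested.

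**Figure D2:**
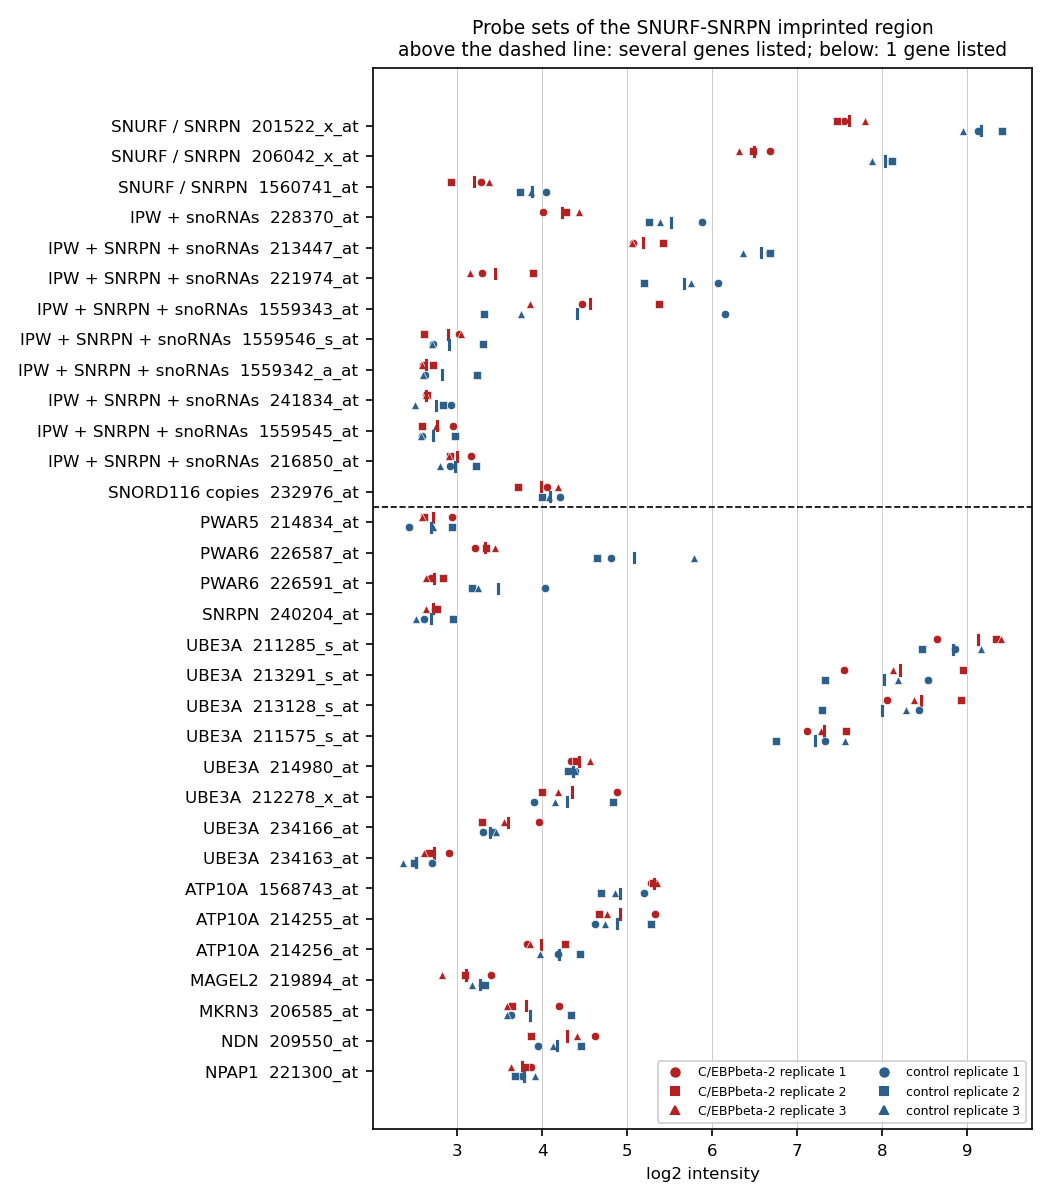
Log2 intensity on each array (x axis) for the 13 multi-gene probe sets of the SNURF-SNRPN region (above the dashed line) and its 19 single-gene probe sets (below). Red marks are C/EBPbeta-2 and blue marks control arrays, shapes give the replicate number and vertical bars the group means. The 3 SNURF;SNRPN and 3 IPW probe sets at the top separate with C/EBPbeta-2 lower, as does PWAR6, while the UBE3A probe sets overlap.

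Where both ends of a joined pair have probe sets, the readings of the ends can be set side by side. They do not separate the read-through transcript from either gene, since no probe sequences were used here. NDUFC2 encodes a subunit of respiratory complex I, and KCTD14 a BTB-domain protein that lies next to it. Probe set 58916_at (NDUFC2-KCTD14;KCTD14) read 7.04, 7.49 and 7.40 in C/EBPbeta-2 and 6.13, 5.98 and 5.98 in control arrays. Probe set 219545_at, with the same symbols, read 7.53, 7.49 and 7.21 against 6.19, 6.71 and 6.44. Both KCTD14 probe sets were higher on every C/EBPbeta-2 array. The differences were 1.28 with SE 0.17 (adjusted p = 0.107, limma) and 0.96 with SE 0.19 (adjusted p = 0.354), neither past the threshold, and 58916_at passed it with array weights (0.0385). The 2 probe sets listing NDUFC2-KCTD14 with NDUFC2 differed by 0.06 (218101_s_at, also higher on every C/EBPbeta-2 array) and -0.21 (222521_x_at, overlapping).

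ARHGAP8 shares a read-through symbol with PRR5, a subunit of mTOR complex 2. Probe set 37117_at (PRR5-ARHGAP8;ARHGAP8) read 6.66, 6.77 and 7.49 in C/EBPbeta-2 and 8.14, 7.59 and 8.31 in control arrays, a difference of -1.04 (adjusted p = 0.730, limma). Probe set 205980_s_at differed by -0.97. Groups did not overlap in either, while 2 further probe sets with the same symbols differed by -0.0026 and 0.036. The PRR5 probe sets alone differed by 0.29 and -0.0093. Other read-through members with large differences were IQCJ-SCHIP1;SCHIP1 (204030_s_at), at 0.98 with SE 0.46, and ISY1-RAB43;RAB43 (225632_s_at), at 0.96 with SE 0.35. SCHIP1 read 8.27, 9.71 and 8.30 in C/EBPbeta-2 arrays and 8.19, 7.18 and 7.98 in control. Its highest and lowest arrays were both second replicates, and the difference was 0.50 to 1.22 with any 1 array left out. RAB43, a GTPase of the Golgi, differed by 0.35 at its single-gene probe set, without overlap.

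MIR503HG, the noncoding RNA annotated together with miR-424 and miR-503, gave 3 readings. Probe set 228235_at (MIR424;MIR503HG) read 5.26, 5.82 and 5.66 in C/EBPbeta-2 and 4.72, 4.57 and 4.31 in control arrays. The groups did not overlap, and the difference was 1.05 with SE 0.21 (adjusted p = 0.341, limma). Probe set 227488_at, which also lists MIR503, differed by 0.71 without overlap, though C/EBPbeta-2 replicate 1 (5.62) and control replicate 1 (5.60) nearly met. Probe set 229784_at overlapped (0.31). The probes of such arrays read long transcripts, and the mature microRNAs printed above were not measured here.

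Among gene copies, TMSB15B;TMSB15A, actin-binding thymosins, read 7.99, 7.36 and 7.74 in C/EBPbeta-2 and 6.89, 6.52 and 6.12 in control arrays at 214051_at. Groups did not overlap. The difference was 1.19 with SE 0.26 (adjusted p = 0.445, limma), but 0.46 between the low-spike arrays and 1.55 between the others, and the second TMSB15B;TMSB15A probe set was dim and differed by -0.14. CNTNAP3B;CNTNAP3 (244065_at), copies of a contactin-associated protein gene, read 3.27, 3.65 and 2.84 against 4.15, 4.38 and 4.40, and differed by -1.06, with all 6 arrays below the median brightness. Its brighter companion 223796_at differed by -0.94, also without overlap, while the single-gene probe sets of CNTNAP3 and CNTNAP3P2 were also dim and differed by 0.017 and 0.049. Of 996 pairs of genes listed together with both promoters in the table, 252 (25.3%) were at least 90% identical over 300 bases, as were 189 of 536 pairs (35.3%) in members whose symbols share a name stem.

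NUAK2, a kinase of the AMPK family, and AKIP1, a protein that binds protein kinase A, are listed together although they lie on chromosomes 1 and 11. Their probe set (220987_s_at) read 8.49, 8.92 and 8.71 in C/EBPbeta-2 and 7.45, 7.34 and 7.70 in control arrays. The groups were more than 0.7 log2 units apart at their nearest arrays. The difference was 1.21 with SE 0.18 (adjusted p = 0.144, limma). The 2 probe sets of AKIP1 alone overlapped, with differences of 0.16 and 0.06. RUNX1, a transcription factor, is listed with 2 uncharacterised loci by 13 probe sets that ranged from -0.05 to 1.00. The highest, 209360_s_at, read 9.03, 8.59 and 9.02 in C/EBPbeta-2 and 7.70, 8.31 and 7.63 in control arrays (1.00, SE 0.24, adjusted p = 0.531). Of the 13, 3 were higher in C/EBPbeta-2 arrays without overlap, against 3.87% of all probe sets tested, and 3 were bright.

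**Figure D3:**
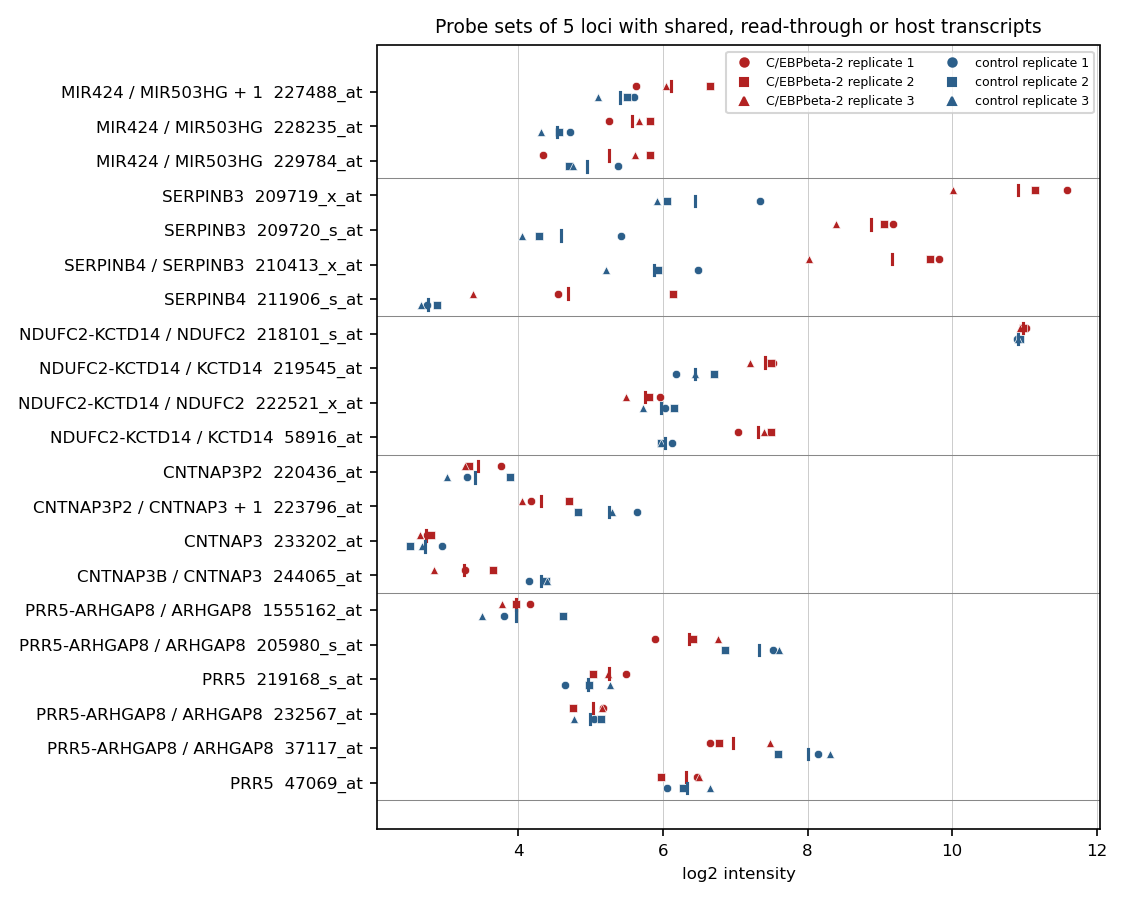
Log2 intensity on each array (x axis) for every probe set of 5 loci (from top to bottom MIR503HG with its microRNAs, SERPINB3 and SERPINB4, KCTD14 and NDUFC2, the CNTNAP3 copies, and ARHGAP8 and PRR5), separated by lines. Red marks are C/EBPbeta-2 and blue marks control arrays, shapes give the replicate number and vertical bars the group means. The 2 KCTD14 probe sets separate by 1.28 and 0.96, 1 of 2 NDUFC2 probe sets separates by 0.06, and 2 of 4 ARHGAP8 probe sets separate.

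On the lower side, 207414_s_at (LOC100507472;PCSK6) read 5.74, 7.15 and 6.27 in C/EBPbeta-2 and 7.35, 7.74 and 7.66 in control arrays. PCSK6 is a proprotein convertase. The difference of -1.20 (adjusted p = 0.813, limma) was -0.21 between the low-spike arrays and -1.70 between the others, and the 4 PCSK6-only probe sets ranged from -0.09 to 0.19. PDE4DIP, myomegalin, is listed with its copy PDE4DIPP2 by 6 probe sets, all with negative differences of -1.25 to -0.45. The groups did not overlap in 212392_s_at (-1.05) and 212390_at (-1.02). At 212390_at the control arrays read 5.995, 4.59 and 5.62, with replicate 2 close to the C/EBPbeta-2 values of 4.14, 4.50 and 4.49. That array and C/EBPbeta-2 replicate 1 had the highest 18S ribosomal RNA control values, 12.17 and 12.19 against 5.62 to 10.33 on the others. Its part in these results was not tested.

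Several probe sets of the same symbols gave repeated readings. The listed members form 1077 sets of symbols, and 392 sets were read by at least 2 probe sets, 1080 in all. In 6 sets at least 2 probe sets were higher in C/EBPbeta-2 arrays without overlap, and in 8 sets at least 2 were lower, 1.53% and 2.04% of the 392. Of 10523 symbols read by at least 2 single-gene probe sets, these shares were 2.04% and 1.96%. Among the 392 sets, only IGK;IGKC held readings without overlap in both directions. GPR89A;GPR89B, copies of a Golgi pH regulator, were higher without overlap in 4 of 4 probe sets, by 0.42 to 0.55, and the one with the smallest p, 225463_x_at, read 8.79, 8.70 and 8.66 against 8.19, 8.12 and 8.21 (adjusted p = 0.573, limma). SLC2A14;SLC2A3, glucose transporters, were higher in 2 of 2 (0.48 and 0.40), both dim. MIR6778;SHMT1, whose host encodes the cytosolic serine hydroxymethyltransferase, was lower in 2 of 2. At 209980_s_at it read 6.93, 6.85 and 6.57 against 7.39, 7.63 and 7.36 (-0.68), and at 224954_at the difference was -0.61. LOC101928274;VSIG10 was lower without overlap in 2 of 3, and the 3 differences lay between -0.96 and -0.58. None of these passed the threshold.

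By gene family, 762 members fell in at least 1 of 29 family lists defined by symbol patterns, and 3 lists (cornified envelope precursors and S100 proteins, metallothioneins, and glycolytic enzymes) had 0 members. Of the probe sets in the lists, 0 were called, against 0.0659% of all probe sets tested. Except for the small RNA hosts, a list required at least 2 symbols of the family, so the called KRT34 probe set is in no list. Shares without overlap are to be read against 7.62% of all probe sets tested (3.87% higher and 3.75% lower). The 28 histone probe sets had 0 readings without overlap and a median difference of -0.08, from -0.85 to 0.57. The 2 largest, H2A and H3 cluster probe sets (207156_at at -0.85 and 206110_at at -0.76), had a high control replicate 1, at 5.49 and 5.22 while the other control arrays read 3.34 to 4.21. The 12 tubulin and actin probe sets had a median mean log2 of 12.9, 0 readings without overlap and a median difference of -0.04. The 13 ribosomal protein probe sets had a median mean log2 of 13.2 and a range of -0.21 to 0.11. Differences were negative in 12 of these 13, against 27394 of all 54613, and 2 were lower without overlap (15.4%). The 10 translation factor and hnRNP probe sets ranged from -0.0084 to 0.20, with 0 without overlap. Protocadherins are cell adhesion genes, and the alpha copies share their last exons. The 14 protocadherin probe sets, chosen by symbol and including some that list a Y-linked gene, had 0 without overlap. Their highest was 224212_s_at (0.69), at 6.17, 5.97 and 7.28 against 5.77, 5.20 and 6.38.

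Host transcripts of small RNAs were the largest lists. Of 144 hosts of snoRNAs and snRNAs, 3 were higher and 10 lower without overlap (9.03%, against 7.62% of all probe sets tested), with a median of -0.05. Of the 10 lower ones, 221974_at, 213447_at and 228370_at belong to the SNURF-SNRPN region. SNORA3A;RPL27A (223707_at) was higher, at 7.08, 7.19 and 6.99 against 6.53, 6.81 and 5.97 (0.65). Of 243 hosts of microRNAs, 9 were higher and 6 lower without overlap (6.17%), with a median of 0.0015. The higher ones included MIR6732;ZC3H12A (218810_at), whose host encodes the RNase regnase-1, at 7.08, 7.16 and 7.67 against 6.76, 6.21 and 6.21 (0.91). MIR6836;SNX8 (228231_at) differed by 0.74 and MIR3658;UCK2 (225722_at) by 0.66. MIR4800;MXD4 (210778_s_at), whose host encodes a MAX-binding repressor, was lower, at 6.46, 5.80 and 6.92 against 7.23, 7.28 and 7.44 (-0.92).

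NEAT1, the architectural RNA of paraspeckles, is listed with MIR612 by 9 probe sets, all with negative differences of -1.80 to -0.35, and all 9 overlapped. At 238320_at it read 6.25, 7.69 and 6.17 in C/EBPbeta-2 and 9.72, 6.79 and 9.02 in control arrays, with control replicate 2 below the second C/EBPbeta-2 array. MIR452;MIR224;GABRE, whose host is a GABA receptor subunit, showed the same low control replicate 2 (4.80, 4.92 and 4.01 against 6.55, 4.59 and 5.78, a difference of -1.07). Control replicate 2 was 1 of the 2 arrays with the highest 18S values given above, and its part in these readings was not tested.

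Families of enzymes, heat shock proteins and receptors gave shares without overlap above and below that of all probe sets tested. Of 21 conjugating and oxidising enzyme probe sets, 1 was higher and 3 lower without overlap (19.0%, against 7.62% of all), with a median of -0.13. The lower ones included SULT1A4;SULT1A3 with their read-through symbols (210580_x_at, -0.65), sulfotransferases, and the UGT1A glucuronosyltransferases (215125_s_at, -0.54). AKR1C2;AKR1C1 (1555854_at), steroid-reducing enzymes, read 3.66, 4.43 and 4.70 in C/EBPbeta-2 and 6.90, 4.47 and 6.02 in control arrays. Its groups overlapped at a difference of -1.54 (adjusted p = 1.00, limma), while the single-gene probe sets of AKR1C1 and AKR1C2 lay between -1.15 and 0.07, and the 4 brightest of them between -1.15 and -0.997. Of 5 heat shock probe sets, HSPA1B;HSPA1A (200799_at, 0.59) and the shared HSPA1L;HSPA1B;HSPA1A (200800_s_at, 0.72) overlapped, and HSPB2 with its read-through partner (238805_at) was lower without overlap (-0.69). Of 67 Fc, killer-cell and immunoglobulin receptor probe sets, 1 was higher and 3 lower without overlap (5.97%) and 14 were bright. KLRC2;KLRC1 (206785_s_at), receptors of natural killer cells, read 3.26, 3.85 and 2.66 against 6.92, 3.66 and 5.00, and its difference of -1.94 ranged from -2.70 to -1.08 with 1 array left out. KLRC4-KLRK1;KLRK1 (205821_at) was lower without overlap (-0.95).

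The remaining lists held smaller differences. Of 85 probe sets of segmental duplication families, 0 were higher and 3 lower without overlap (3.53%). Their largest differences overlapped, at -1.52 for ANKRD20A copies (1569607_s_at), -0.84 for GOLGA8B;GOLGA8A (210425_x_at) and 0.72 for NPIP copies (215123_at). Of 10 small GTPase probe sets 9 were negative, with a median of -0.33, and 2 were lower without overlap. The 22 zinc finger probe sets had 0 without overlap. The 32 cancer-testis antigen probe sets had 2 higher and 2 lower without overlap, and 6 were bright. HBA2;HBA1 (209458_x_at), the alpha globins, read 5.16, 5.26 and 5.41 against 5.69, 5.75 and 5.66 (-0.43). Of the 7 HLA and MIC probe sets, 1 was lower without overlap, MICA;MICB (205905_s_at), at -0.25. The 14 cytokine, interferon and defensin probe sets lay between -0.30 and 0.16, and 1 was higher without overlap. The 5 keratin-associated protein probe sets lay between -0.025 and 0.10. The 12 olfactory and taste receptor, 3 complement C4, 5 cyclin-dependent kinase, 4 ubiquitin system and 11 transporter probe sets lay between -0.40 and 0.48. Without overlap, 1 olfactory or taste receptor and 1 cyclin-dependent kinase probe set were higher, and 0 of the complement C4 probe sets differed. In the ubiquitin system 2 were lower (50.0%), and of the transporters 2 were higher and 1 lower (27.3%).

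**Figure D4:**
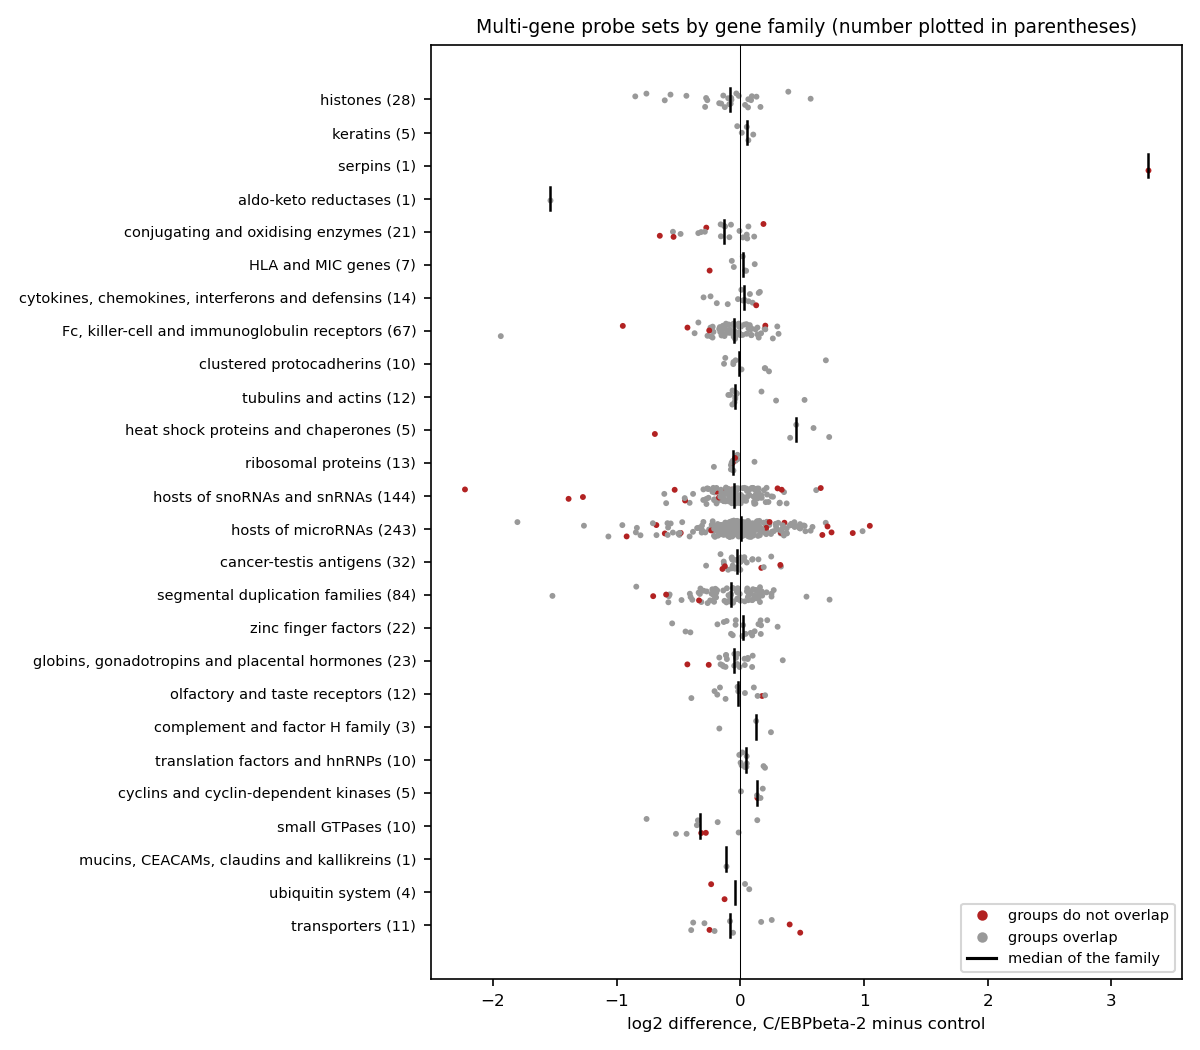
Log2 difference, C/EBPbeta-2 minus control (x axis), of each multi-gene probe set in the family lists that had members. Each point is a probe set, red where the groups did not overlap and grey where they did, and vertical bars are family medians. Members that list Y-linked genes are not plotted, so protocadherins and segmental duplication families show 10 and 84 points. The serpin probe set at 3.30 stands at the right, and the snoRNA hosts reach -2.23.

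The share of members without overlap between groups was 6.35% to 11.7% across kinds of relation between the listed genes. Groups did not overlap in 52 of 650 members whose symbols share a name stem, 7.16% of 363 that list a small RNA, 9.57% of 230 read-through members, 11.7% of 257 with an uncharacterised or pseudogene partner, 10.2% of 49 with an antisense transcript and 6.35% of 252 with other names. The share was 7.62% over all probe sets tested, and these classes were not tested against each other. The KRT34 probe set was in the class with an uncharacterised partner. By position, 753 members list genes that overlap on a chromosome (8.76% without overlap of the groups), 754 list genes of 1 chromosome that do not (8.62%) and 269 list genes on 2 or more chromosomes (7.06%).

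A shared probe set and a single-gene probe set for one of its symbols often differed in sign, though small differences can change sign within the spread of the arrays. Of the 1801 members, 1041 (57.8%) had a single-gene probe set for at least 1 listed symbol. Against the brightest of these, the sign of the difference was the same in 632 (60.7%). Among the 86 of these whose groups did not overlap, the sign was the same in 55 (64.0%). In 6 the single-gene groups also did not overlap in that direction. Over all probe sets tested, 3.87% were higher and 3.75% lower without overlap. Where both readings of the 86 were bright, the sign was the same in 23 of 34 (67.6%), and 4 single-gene groups did not overlap in that direction. Equal signs can hide unequal sizes. KLK9;KLK8 (233687_s_at), kallikrein proteases, overlapped and differed by -0.12, while a KLK8 probe set (206125_s_at) read 5.53, 4.80 and 4.95 against 6.19, 6.09 and 6.32, a difference of -1.11 without overlap. Probe sets of a gene can match different exons, and no probe sequences were used here to tell which transcript each of these read.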

How the data were processed

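Expression was measured on 6 Affymetrix arrays, 3 labelled C/EBPbeta-2 and 3 control. The deposited table holds an intensity for each probe set on each array, made with RMA (robust multi-array average) per the submitters' processing notes. The sources used here give no version or genome build. RMA usually gives log2 values, but the deposited intensities were linear, from 4.17 to 17825, with array medians of 22.0 to 23.6 and 0 missing. Values were analysed as log2, without a pseudocount or another normalization. No detection calls were used. The number of arrays limits the precision.

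Symbols came from GEO's platform annotation. Of 2339 gene IDs listed by the members, 2320 were in the RefSeq gene table. C/EBPbeta-2 was compared with control by limma 3.58.1 (lmFit and eBayes, R 4.3.3), two-sided, adjusted by Benjamini-Hochberg over 54613 probe sets and called under 0.05. On simulated arrays with the means and spread of these, the script called 8 of 100 probe sets shifted by 1 log2 unit. It called 88 of 100 shifted by 4. With 3 arrays against 3, an exact permutation test of a single value cannot go below 0.1, so none was run. Named were the called member, the 10 with the largest positive and the 10 with the largest negative difference (groups not overlapping, brighter group at or above the median), and up to 3 per family list. These members and lists were chosen with earlier results of these data known, and the loci and sequences after the values were seen, so they are no independent evidence. The 36 members that list Y-linked genes or XIST were counted but not named. Alternatives left out arrays, dim probe sets or shared-probe names, renormalized, or changed the variance model, covariates or threshold. Python 3.11.15 with pandas 2.3.3, numpy 2.4.6 and matplotlib 3.10.9 read and plotted the values.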

Additional observations from a re-analysis of the deposited data

How the results depend on the processing

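The count of called members was 1 with the fit as reported, 5 with array weights, 2 with a term for spike level, 2 with the beta-actin covariate, 4 at an adjusted p under 0.10, and 0 with the replicate number as a replicate block, where 61 members had an unadjusted p under 0.05 (limma). The labels do not say whether the replicate numbers pair the samples. Same-numbered arrays' deviations from their group means correlated at -0.45, -0.55 and 0.42, which cannot decide it. With 1 array left out the count was 0 to 1. Over all probe sets the count was 36, and became 78 without dim probe sets, 67 with a trended robust prior, 122 with array weights, 78 with the beta-actin covariate, 92 at 0.10, 0 with the replicate block, and 5 to 37 with 1 array left out. Members without overlap numbered 151, and 94 without dim probe sets, 78 without shared-probe names (fewer probe sets entered both), and 265 to 387 with 1 array left out, where fewer arrays must separate. Re-quantiling, centring and the other settings kept these counts within 1.5 times.

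Of the 88 named probe sets, 13 changed sign under at least 1 alternative, with reported differences of -0.40 to 0.20. With 1 array left out they ranged from -0.048 to 0.24 for KRTAP10-12;KRTAP10-7, from -0.011 to 0.19 (220970_s_at) and -0.027 to 0.11 (1555673_at) for KRTAP2-3;KRTAP2-4, from -0.0092 to 0.26 for HLA-DQA2;HLA-DQA1, from -0.13 to 0.029 for the HLA-DRB copies, and from -0.53 to 0.080 for CCL15-CCL14;CCL14. The protocadherin alpha set 210674_s_at ranged from -0.11 to 0.50, the RPL17 sets from -0.49 to 0.10 (214291_at) and -0.24 to 0.10 (224957_at), ZNF417;ZNF587 (1558253_x_at) from -0.77 to 0.085, EIF3CL;EIF3C from -0.12 to 0.21, the UBE2V1 set 201003_x_at from -0.034 to 0.18 and KLK9;KLK8 from -0.46 to 0.29, which also read 0.076 with array weights. The causes were not tested. Signal was low in 691 of 1801 members, whose means lay below the median brightness. Of these 0 were called and 15 had an unadjusted p under 0.05 (limma), and of all 27306 such probe sets 1 was called.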
